A study of Mus musculus with 20 samples.

Results

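The loci of the 10 AP-1 family genes examined here were Fos, Fosb, Fosl1 and Fosl2 (the FOS subfamily), Jun, Junb and Jund (the JUN subfamily), and Atf3, Batf and Batf3. Accessible regions were built by merging every peak of the 20 ATAC-seq libraries that overlapped by at least 1 bp, and a region belonged to a locus when it lay within 20 kb of the annotated gene span on the mouse genome mm10. Of 335858 merged regions, 144 met this rule. They comprised 23 own promoters, within 2 kb of a start site of the member gene, 96 distal elements, and 25 promoters of neighbouring genes that are not described further. The own promoters and distal elements are referred to together as the 119 elements, and each is named by the distance of its highest summit from the 5′-most start site of its gene.

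AP-1 is a dimer of basic leucine zipper proteins. JUN proteins pair with themselves or with FOS, ATF and BATF proteins, and the dimers bind the TPA response element TGACTCA or the related CRE. Fos, Fosb, Jun, Junb and Atf3 are immediate early genes, transcribed within minutes of growth factor, MAP kinase or stress signals through serum response factor bound at CArG boxes and through CRE-binding proteins, and AP-1 is a main occupant of fibroblast enhancers. ATAC-seq marks DNA that the Tn5 transposase can reach, so these data measure accessibility at the genes and not their transcripts or proteins.

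All fibroblast samples were mouse embryonic fibroblasts (MEFs) carrying the OG2 transgene, an Oct4-GFP reporter. For reprogramming, MEFs received retroviral Oct4 together with either full-length Nanog (Nanog path) or NanogN70 (NanogN70 path). According to the study's methods the latter is NANOG with the N-terminal, BRG1-interacting stretch of the BAF complex subunit SS18 fused to its N-terminus. Each path was sampled once on each of 8 days from day 0 to day 12, day 0 falling after 2 rounds of infection. Starting MEFs (1 library) and embryonic stem cells (ESCs, 3 libraries, in 2i/LIF medium) were the end points. Around day 7 the cells moved from the iCD3 induction medium to 2i/LIF, which contains the MEK inhibitor PD0325901, so day and medium cannot be told apart in any comparison of early with late days. No time point had a replicate. Days were therefore used as the samples, and the p-values below measure the spread between days of 1 time course per path.

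A library held 44126 to 125467 peaks. Total reads per library were not given in the files, so the height of a peak, its summit pileup in overlapping tags, was divided by the median pileup of the same library over the 14217 regions that were open in every one of the 20 libraries. That median ran from 16 to 60. A relative summit pileup of 1 is thus the height of a typical constitutive region. The fibroblast marker genes had promoter peaks for 10 of 10 genes in MEFs and 8 of 10 in each ESC library, and the pluripotency marker genes for 9 or 10 of 10 in ESCs and 8 of 10 in MEFs, so presence of a promoter peak alone separated the cell types poorly. The NanogN70 day 3 library stood apart. It had the highest median pileup (60), and 23.3% of its regions were open in no other library. That share was 29.0% in MEFs and 1.45% to 14.3% in the remaining libraries. NanogN70 day 3 alone had promoter peaks at 15 of 15 T lymphocyte genes and 10 of 10 pan-leukocyte genes. The other libraries had 3 to 10 and 2 to 6. Of 9 macrophage genes, 3 had a promoter peak on NanogN70 day 3 and 0 to 4 elsewhere. Whether the NanogN70 day 3 library matches its label was not tested. The elements and counts most affected are given with and without it. The 3 ESC libraries shared 62.9% to 65.0% of their regions pairwise.

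The elements to which the comparisons return are given as 201 bases centred on the summit, read from the plus strand of GRCm38, with matches to the searched motifs in capitals. The first pair are from the Fos promoter and from the upstream Fosb promoter region at -0.3 kb, each with 1 CArG box. The next is the Fos element at 12.2 kb downstream of the start, which also held a CArG box, and the Atf3, Jund and Fosl1 elements follow with AP-1 letters. The last pair are the upstream Fosl2 region and the Fos element at -5.8 kb, which were among the elements with the largest differences between the paths. In the Fosl2 window the capitals mark a KLF motif, and the window of the Fos element held none of the motifs.
Fos promoter, chr12:85473491-85473691: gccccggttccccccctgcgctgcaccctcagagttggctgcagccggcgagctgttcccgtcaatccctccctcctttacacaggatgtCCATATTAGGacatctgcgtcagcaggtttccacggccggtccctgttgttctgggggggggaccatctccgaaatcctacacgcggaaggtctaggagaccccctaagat
Fosb -0.3 kb, chr7:19310248-19310448: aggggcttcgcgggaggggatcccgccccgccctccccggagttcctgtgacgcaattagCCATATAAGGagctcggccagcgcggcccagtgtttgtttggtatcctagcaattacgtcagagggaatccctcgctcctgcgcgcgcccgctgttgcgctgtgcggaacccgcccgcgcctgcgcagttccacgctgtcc
Fos +12.2 kb, chr12:85485974-85486174: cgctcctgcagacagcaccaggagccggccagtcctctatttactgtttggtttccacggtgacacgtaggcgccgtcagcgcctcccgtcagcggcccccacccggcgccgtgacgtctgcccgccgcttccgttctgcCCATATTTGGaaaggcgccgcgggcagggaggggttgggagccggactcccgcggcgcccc
Atf3 -6.3 kb, chr1:191224287-191224487: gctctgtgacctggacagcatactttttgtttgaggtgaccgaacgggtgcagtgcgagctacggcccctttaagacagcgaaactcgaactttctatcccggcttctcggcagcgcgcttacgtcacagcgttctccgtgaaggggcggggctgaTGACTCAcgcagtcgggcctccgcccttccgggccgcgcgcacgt
Jund -16.6 kb, chr8:70682275-70682475: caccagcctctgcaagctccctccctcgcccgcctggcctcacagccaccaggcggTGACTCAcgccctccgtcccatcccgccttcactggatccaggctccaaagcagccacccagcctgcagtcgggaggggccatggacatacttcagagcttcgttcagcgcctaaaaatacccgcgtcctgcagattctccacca
Fosl1 -14.0 kb, chr19:5433449-5433649: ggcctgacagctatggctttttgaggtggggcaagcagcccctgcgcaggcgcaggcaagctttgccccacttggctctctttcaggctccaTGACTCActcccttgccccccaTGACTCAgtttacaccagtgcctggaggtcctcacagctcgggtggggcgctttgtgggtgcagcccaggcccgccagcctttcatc
Fosl2 -2.1 kb, chr5:32133642-32133842: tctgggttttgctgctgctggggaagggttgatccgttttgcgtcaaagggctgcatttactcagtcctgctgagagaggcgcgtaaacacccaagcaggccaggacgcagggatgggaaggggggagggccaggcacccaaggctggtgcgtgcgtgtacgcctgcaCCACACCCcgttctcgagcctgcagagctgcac
Fos -5.8 kb, chr12:85467967-85468167: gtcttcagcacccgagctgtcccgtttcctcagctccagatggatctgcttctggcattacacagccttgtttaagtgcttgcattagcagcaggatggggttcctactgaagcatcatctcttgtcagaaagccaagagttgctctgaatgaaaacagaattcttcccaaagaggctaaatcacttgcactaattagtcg

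The promoters of the FOS subfamily differed in how they were maintained. The Fos promoter (chr12:85471610-85475230, spanning the start of a gene on the plus strand at chr12:85473890-85477273) had a peak in all 20 libraries, with MACS scores, -10 times the log10 of the peak's p-value, between 210.56 and 1360.31. Its relative pileup was 1.95 in MEFs and 0.844, 0.632 and 0.621 in the 3 ESC libraries (mean 0.699 ± 0.126, SD, n = 3). Over the Nanog path it lay between 2.09 and 3.71 (median 2.61), and over the NanogN70 path between 1.83 and 2.64 (median 2.32). The Fos promoter was thus higher in each of the 16 time course libraries than in any ESC library, including both day 12 libraries, and the MEF value was 2.79 times the ESC mean. With 1 MEF library this ratio has no test.

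Fosl2, which encodes FRA-2, had the same order of end points at its main promoter (chr5:32134916-32136904, 0.1 kb upstream of the start). The relative pileup was 2.77 in MEFs and 0.969, 0.868 and 0.862 in ESCs, 3.08 times lower on the mean. It lay between 1.25 and 2.5 (median 2.06) over the Nanog path and between 0.763 and 2.29 (median 1.25) over the NanogN70 path. A companion region at -2.1 kb (chr5:32132583-32134113), chosen after its values were seen, had a pileup of 1.31 in MEFs and a peak in 1 of the 3 ESC libraries, at 0.263. The 2 end points were closer at the larger Fosb promoter region (chr7:19307221-19309451, gene on the minus strand), with 1.31 in MEFs and 1.03 ± 0.245 (SD, n = 3) in ESCs. The upstream Fosb promoter region at -0.3 kb (chr7:19309643-19310686), which held the CArG box and was also chosen after its values were seen, was open in all 20 libraries, with 0.923 in MEFs and 1.12 ± 0.164 (SD, n = 3) in ESCs. Fosl1, which encodes FRA-1, had a low promoter peak (chr19:5447235-5448104) in 19 libraries, at 0.385 in MEFs and 0.428 ± 0.053 (SD, n = 3) in ESCs, and Nanog day 12 was the library without it.

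The 3 JUN subfamily promoters were open in every library. At Jun (chr4:95047101-95053973, minus strand), the relative pileup was 2.95 in MEFs, 2.38 to 3.68 over the Nanog path, 2.63 to 3.22 over the NanogN70 path and 1.82 ± 0.166 (SD, n = 3) in ESCs. The Jun promoter had the smallest spread over the 16 time course libraries of all 10 members, with an SD of 0.15 on the log2 scale. At Junb (chr8:84974723-84979151, minus strand) MEFs and ESCs were level, with 1.67 and 1.66 ± 0.272 (SD, n = 3). That region covers most of the gene, and its highest summit lay 2.1 kb downstream of the start. The upstream Junb promoter region at -1.2 kb (chr8:84979297-84980707), chosen after its values were seen, had a peak in 17 libraries, with 1.23 in MEFs and 0.669 ± 0.0505 (SD, n = 3) in ESCs, a 1.84-fold ratio. At Jund (chr8:70697654-70701898, plus strand) the end points were also close, with 1.72 in MEFs and 1.84 ± 0.133 (SD, n = 3) in ESCs, but the time course libraries reached 4.93 on the Nanog path and 4.51 on the NanogN70 path. The lowest time course value at Jund was 1.94, above the MEF value.

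Atf3, a stress-induced partner that represses many immediate early promoters, has several start sites, and the one RefSeq lists lies in its highest promoter region (chr1:191182214-191184063, minus strand, 34.5 kb into the longest transcript). The relative pileup there was 2.31 in MEFs and 0.688, 0.842 and 0.655 in ESCs, a 3.17-fold ratio of the means. A region near the far upstream Atf3 start (chr1:191215875-191216740), chosen after its values were seen, had its highest summit 1.7 kb downstream of that start, inside the gene. This region had a peak in MEFs (0.590) and in all 16 time course libraries but in 0 of 3 ESC libraries. Batf and Batf3 encode leukocyte-enriched partners. The main Batf promoter region (chr12:85686081-85686952) had a peak in MEFs at 0.205 and on NanogN70 day 3 at 0.817 and in no other library. Another Batf promoter region, at 0.4 kb, had low peaks in ESC replicate 1 and on NanogN70 days 0, 3 and 5 (MACS scores 54.92 to 63.44). A further one at 1.4 kb had a peak on NanogN70 day 3 alone. The Batf3 promoter (chr1:191098211-191098791) had a peak in 18 libraries at 0.652 or below. The Batf promoter had the largest SD of the 10 promoters, 0.69 on the log2 scale. That SD rested on NanogN70 day 3, the only time course library with a peak there. The genes whose promoter pileup followed that of Batf most closely over the 20 libraries were Hsd11b1 (Spearman rho 0.557), Traf1 (0.557) and Cnga1 (0.554) of 14555 genes compared. These values rest on ties among libraries without a peak.

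**Figure D1:**
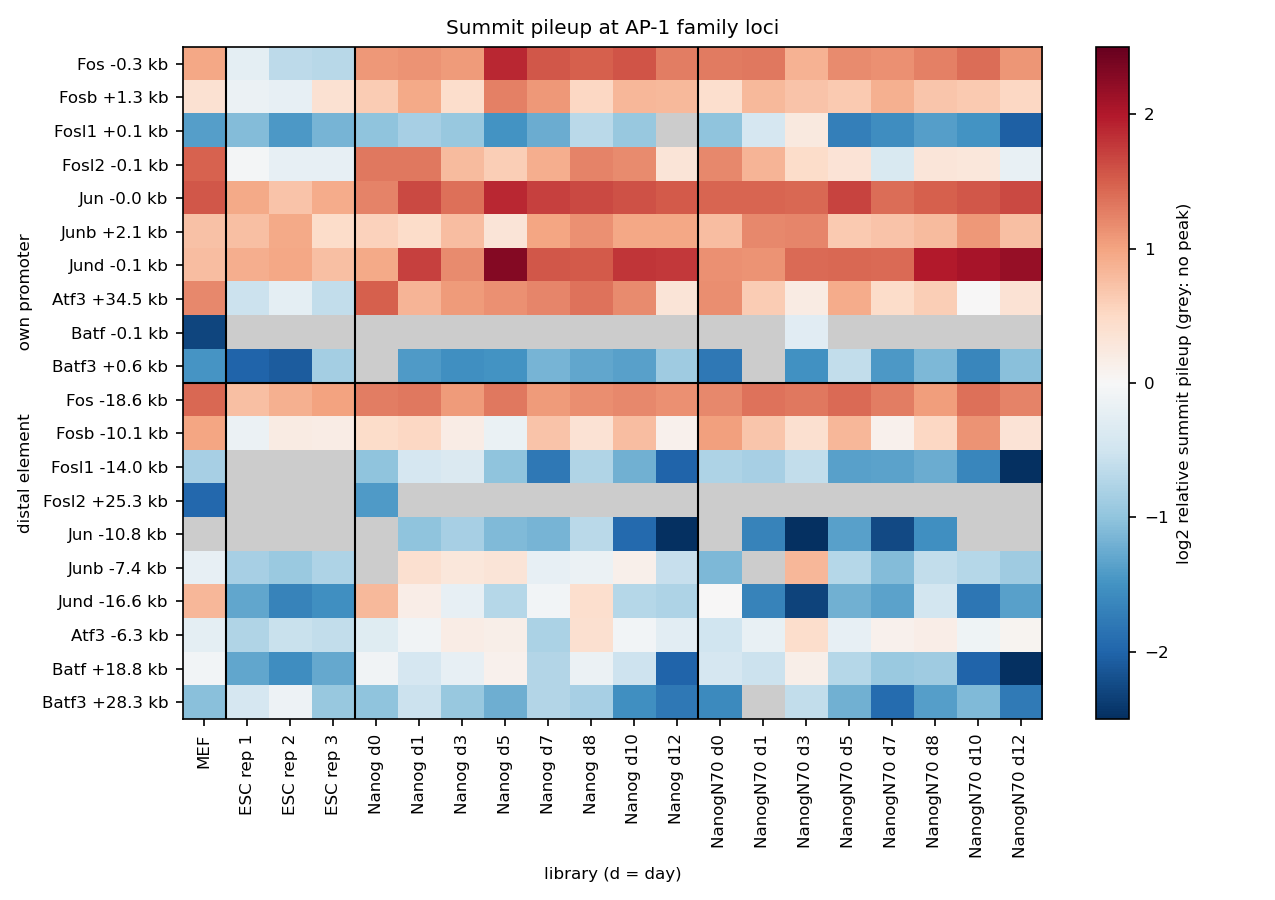
Heat map of log2 relative summit pileup (colour; grey, no peak) in the 20 libraries (columns) at the main own promoter of each of the 10 members (upper rows) and at the distal element open in most libraries (lower rows). The promoters of Fos, Fosb, Fosl2, Jun, Junb, Jund and Atf3 had a peak in all 20 libraries, and the Batf promoter in 2.

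In all, 16 of the 119 elements had a peak in all 20 libraries (8 own promoters and 8 distal elements), where 4.23% of all merged regions did. Sorting the elements by the end points, 11 of 23 own promoters had peaks in MEFs and in each of the 3 ESC libraries, against 33.2% of all promoter regions, and 6 were open in MEFs but in 0 of 3 ESC libraries, against 13% of all promoter regions. These 6 were 1 each at Fosl1, Fosl2, Atf3 and Batf and 2 at Batf3. Of the 96 distal elements, 20 had a peak in MEFs and none in ESCs, close to the 23.7% of all distal regions, and 8 were open in at least 2 ESC libraries and not in MEFs, against 16.7% of all distal regions. A further 17 were shared by MEFs and all 3 ESC libraries, 17.7% (exact 95% interval 10.7% to 26.8%, counting error only) against 5.47% of all distal regions.

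The shared and MEF-only elements were spread unevenly over the genes. Fosb had 5 shared distal elements, Fos 4 and Atf3 3. Jun, Fosl1 and Fosl2 had 0 shared ones, and all their distal elements that were open in MEFs (4, 3 and 4) were closed in ESCs. The Jun gene thus had a constitutive promoter of the 20-library kind and MEF-only distal elements. The Fos element at -18.6 kb (chr12:85454599-85456140, intergenic) was a constitutive one, with 2.69 in MEFs, 1.84 ± 0.156 (SD, n = 3) in ESCs and 2.08 to 2.65 over the 16 time course libraries. The Fosb element at -10.1 kb (chr7:19319175-19320387, over an exon of D830036C21Rik) and the Atf3 element at -6.3 kb (chr1:191223884-191225385, intergenic) were open in all 20 libraries as well. A MEF-only element of the opposite kind, chosen after its values were seen, lay 4.1 kb upstream of the Atf3 start. It had a pileup of 43 tags in MEFs, a peak in both day 0 libraries (14 and 20 tags) and in no other library.

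**Figure D2:**
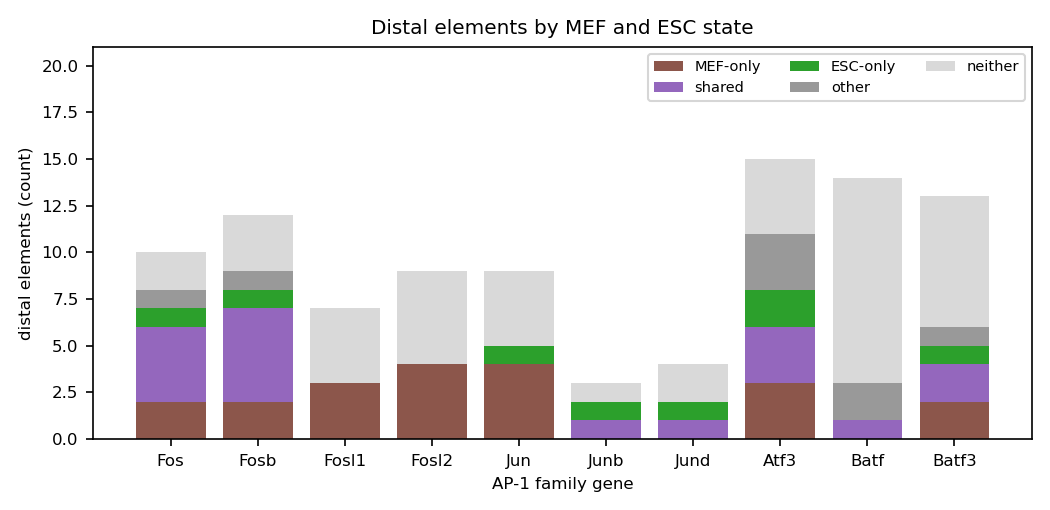
Number of distal elements at each gene (bars, stacked), coloured by whether they were open in MEFs but not ESCs, in MEFs and all 3 ESC libraries, in at least 2 ESC libraries and not MEFs, in no end point library, or in another combination. Fosl1, Fosl2 and Jun had MEF-only and no shared elements, and Batf had 11 of its 14 elements in no end point library.

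Whether elements open in MEFs were still open at the end of the time course was asked next. Of the 38 distal elements open in MEFs, 17 had a peak on day 12 of the Nanog path (44.7%, exact 95% interval 28.6% to 61.7%), where 16.3% of all MEF distal regions did. On day 12 of the NanogN70 path 15 of the 38 had a peak (39.5%, 24.0% to 56.6%) against 15.9%. All 15 were also open on Nanog day 12. On the 2 days together, the Fos locus kept 5 and 4 of its 6 MEF distal elements and the Fosb locus 4 and 4 of 7. The Jun and Fosl2 loci kept 0 of 4 each on both paths, and Atf3 kept 2 of 7. In ESCs 17 or 18 of the 38 were open, against 19.6% to 22.2% of all MEF distal regions. The own promoters lay closer to the share of all promoter regions. Of 18 open in MEFs, 11 (61.1%) were open on Nanog day 12 and 13 (72.2%) on NanogN70 day 12. The shares of all MEF promoter regions were 64.1% and 65.7%. In ESCs 11 or 12 of the 18 were open, against 69.3% to 71.7%. The 38 elements were stronger than the average in MEFs (median pileup 19 tags against 9 for all MEF distal regions, median score 198 against 120), and the part of peak strength in these shares was not tested. With an equal number of top-scoring peaks per library, own promoters included, 82.1% of 28 MEF-open elements were open on Nanog day 12 against 47.1% of all MEF regions. On NanogN70 day 12 the shares were 67.9% and 43.3%.

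**Figure D3:**
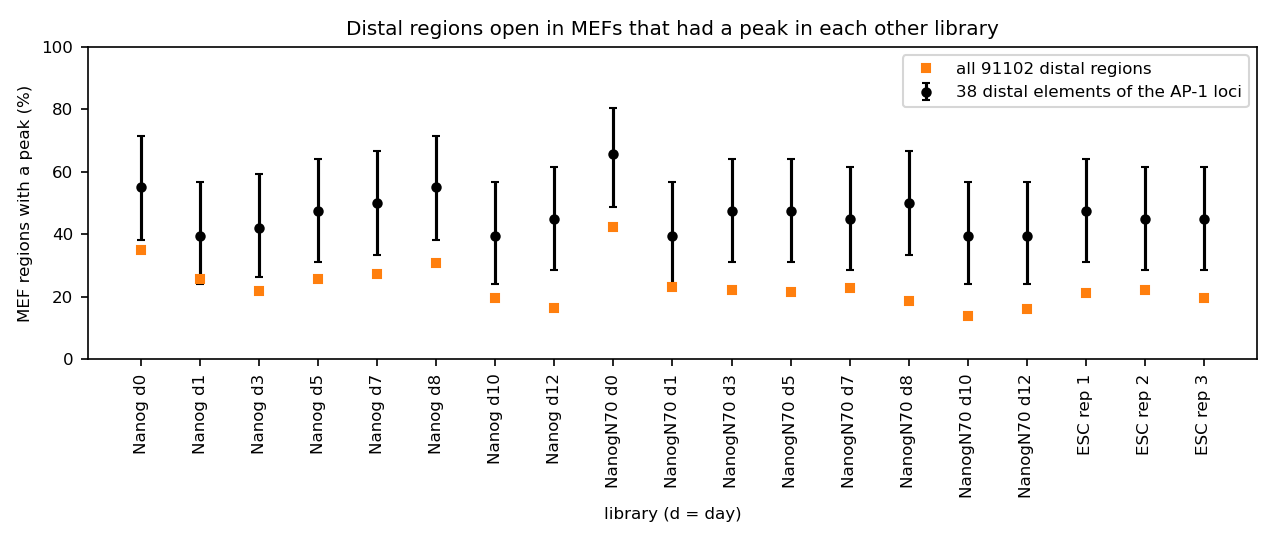
Percentage of distal regions open in MEFs that had a peak in each of the other 19 libraries, for the 38 distal elements of the AP-1 loci (circles, exact 95% binomial intervals) and for all 91102 distal regions open in MEFs (squares). The circles lay above the squares in each library, with an interval that included the square on Nanog day 1 alone.

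Early days (0, 1 and 3, 6 libraries) were compared with late days (8, 10 and 12, 6 libraries) by an exact permutation test, two-sided, that exchanged days within each path (400 ways, smallest possible p 0.005) at all 335858 regions with Benjamini-Hochberg adjustment. The test called 0 of the 119 elements and 0% of all regions, and the smallest adjusted p was 0.147. In simulated libraries even a 4-fold change at 200 of 14217 regions gave 0 adjusted calls, so the count of 0 does not bound the size of a change. At an unadjusted p of 0.05 or below there were 25 elements, against 10.4% of all regions. A region without a peak was set to the lowest pileup of its library, and this floor lay between 0.0667 and 0.25 of the median pileup. With a common floor for all libraries the count was 9, against 4.18% of all regions, and 15 without NanogN70 day 3, against 7.26%. Of the 119 elements, 0 had 6 late libraries all below the 6 early ones (0.301% of all regions) and 0 the reverse (0.233%).

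Of the 9 elements at an unadjusted p of 0.05 or below with the common floor, described here after their values were seen and with the library floors unless stated, 5 were higher late and 4 lower. The Jund promoter had early values of 1.94 to 3.25 (median 2.23) and late values of 2.91 to 4.51 (median 3.70). The late mean was 0.63 higher on the log2 scale (exact permutation p = 0.01, adjusted p = 0.147, or 0.773 with the common floor), and the groups overlapped. This value turned to -0.18 when only summits within 250 bp of the top summit of this region of 4245 bp were counted. The Batf3 promoter was 0.55 higher late (exact permutation p = 0.02), and the Fos elements at 12.2 and 18.4 kb were 0.36 and 0.91 higher (exact permutation p = 0.03 and 0.025). With MACS scores in place of pileup the value at 18.4 kb was 0.40 (exact permutation p = 0.185). At 12.2 kb it was 0.20 on the Nanog path alone (exact permutation p = 0.4, smallest possible 0.1), and leaving out Nanog day 1 or NanogN70 day 12 gave 0.33 and 0.29 (exact permutation p = 0.055 for both). With peaks of a score of at least 100 the Batf3 promoter gave 0.53 (exact permutation p = 0.095). The Jund element at -7.0 kb (chr8:70691365-70692272, intergenic) was absent from MEFs and from all 6 early libraries. It was 1.58 higher late (exact permutation p = 0.03), or 1.29 with peaks of a score of at least 100 (exact permutation p = 0.06). Between the early and late days it had a peak on Nanog day 5 and NanogN70 day 7 (MACS scores 56.13 and 418.41). It had 27, 34 and 25 tags in the ESC libraries and a peak in 5 of 6 late libraries, with 14, 28 and 37 tags on days 8, 10 and 12 of the NanogN70 path and 0, 7 and 16 on those of the Nanog path.

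The 4 lower ones were at Fosl1 and Batf. The Fosl1 element at -14.0 kb (chr19:5432672-5433857, intergenic), which held 2 copies of TGACTCA, had a relative pileup of 0.564 in MEFs and no peak in ESCs. Its early values were 0.5 to 0.783 (median 0.617) and its late values 0.146 to 0.594 (median 0.372), a difference of -0.93 on the log2 scale (exact permutation p = 0.01, adjusted p = 0.147). With summits within 250 bp of the top summit only, the difference was -0.15 (exact permutation p = 0.75). The Fosl1 promoter differed by -0.86 (exact permutation p = 0.045), and by -0.68 without NanogN70 day 3 (exact permutation p = 0.075), the library with its highest value. Leaving out any other single early library, or one of Nanog day 12 and NanogN70 days 8, 10 and 12, also gave a p above 0.05 (-0.93 to -0.65, exact permutation p = 0.055 to 0.08). On the Nanog path alone the difference was -0.48 (exact permutation p = 0.9). The difference at the intronic Fosl1 promoter region at 1.2 kb was -1.12 (exact permutation p = 0.005), or -0.55 with the common floor (exact permutation p = 0.02). The latter was open in 5 of 6 early and 1 of 6 late libraries. The intronic Batf element at 18.8 kb (chr12:85704622-85706315), the only Batf element open in all 20 libraries, had early values of 0.688 to 1.10 and late values of 0.171 to 0.906, a difference of -1.10 (exact permutation p = 0.015), or -1.89 with summits within 250 bp only, -1.87 with MACS scores, and -1.06 without Nanog day 0 (exact permutation p = 0.06). Its window held 1 TEAD motif. Without NanogN70 day 3 and with the common floor, the Jund promoter value was 0.67 and the Fosl1 and Batf elements gave -0.80 and -0.93. The difference between the paths in the early-to-late change had an unadjusted p of 0.05 or below at 0 of the 119 elements, against 0.287% of all regions (exact permutation test, 64 exchanges, smallest possible p 0.03125). For the Jund element at -7.0 kb, the late minus early difference was 0.55 on the Nanog path and 2.62 on the NanogN70 path (exact permutation p of the difference between paths 0.0625).

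The paths were compared day by day by an exact permutation test, two-sided, that flipped the sign of the 8 daily differences in log2 relative pileup (smallest possible p 0.0078125). It called 0 of 119 elements and 0% of all regions after adjustment, with a smallest adjusted p of 0.218. At an unadjusted p of 0.05 or below there were 14 elements, against 8.62% of all regions, and 6 with the common floor, against 1.82%. Without day 3 the counts were 11 (4.61% of all regions) and, with the common floor, 6 (1.33%). NanogN70 lay below Nanog on all 8 days at 5 elements, against 1.12% of all regions, and at 3 with the common floor, against 0.217%. It lay above Nanog on all 8 days at 0 elements, against 0.114%. The median of the daily mean differences was -0.24 over the elements and -0.32 over all regions, the latter a value of the floors.

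The 3 elements lower on every day with either floor were the Fosl2 promoter regions at -0.1 and -2.1 kb and the Jund element at -16.6 kb. The other Fosl2 promoter region, at 10.6 kb, had a peak in MEFs alone. The main Fosl2 promoter was 0.61 lower on the log2 scale on the NanogN70 path (SD of the daily differences 0.40, exact permutation p = 0.0078, adjusted p = 0.218), 1.52-fold. At -2.1 kb the region had a peak on all 8 days of the Nanog path, between 0.5 and 1.19, and on 5 of 8 days of the NanogN70 path, at most 0.792. There the difference was -1.49, or -1.2 with the common floor (exact permutation p = 0.0078 for both). It was -0.53 with summits within 250 bp only (exact permutation p = 0.297) and -0.87 with peaks of a score of at least 100 (exact permutation p = 0.125), while at the main promoter the summit window gave -1.79 (exact permutation p = 0.0078). With MACS scores in place of pileup the differences were -0.38 at the main promoter (exact permutation p = 0.047) and -0.86 at -2.1 kb (exact permutation p = 0.0156). The Jund element at -16.6 kb (chr8:70681977-70682660, intergenic) had 1.77 in MEFs and 0.406, 0.316 and 0.345 in ESCs, a 4.98-fold ratio of the means. It lay between 0.583 and 1.75 (median 0.908) on the Nanog path and between 0.200 and 1.00 (median 0.392) on the NanogN70 path, where the values on days 1, 3 and 10 were below all 3 ESC libraries. The difference was -1.13 (SD 0.59, exact permutation p = 0.0078), or -0.99 without day 3 with the common floor (exact permutation p = 0.0156, the smallest that 7 days allow).

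The Atf3 promoter had a like difference of -0.53 (exact permutation p = 0.0156), with NanogN70 lower on 7 of 8 days, and of -1.46 with summits within 250 bp only. The intronic Jun element at -10.8 kb (chr4:95062804-95063601, in the antisense gene Junos) was open in neither MEFs nor ESCs. It had a peak on days 1 to 12 of the Nanog path and on days 1, 3, 5, 7 and 8 of the NanogN70 path. The difference there was -0.86 with the library floors (exact permutation p = 0.0078) and -0.48 with the common floor (exact permutation p = 0.031), or -0.38 with the common floor and without day 3 (exact permutation p = 0.0625). The Batf3 element at 5.1 kb was the fifth of those lower on all 8 days. It had a peak in 5 libraries, and its difference was -0.12 with the common floor (exact permutation p = 0.5). The promoters of Fos, Fosb, Jun, Junb and Jund had path differences between -0.19 and 0.12, and none had an unadjusted p of 0.05 or below.

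**Figure D4:**
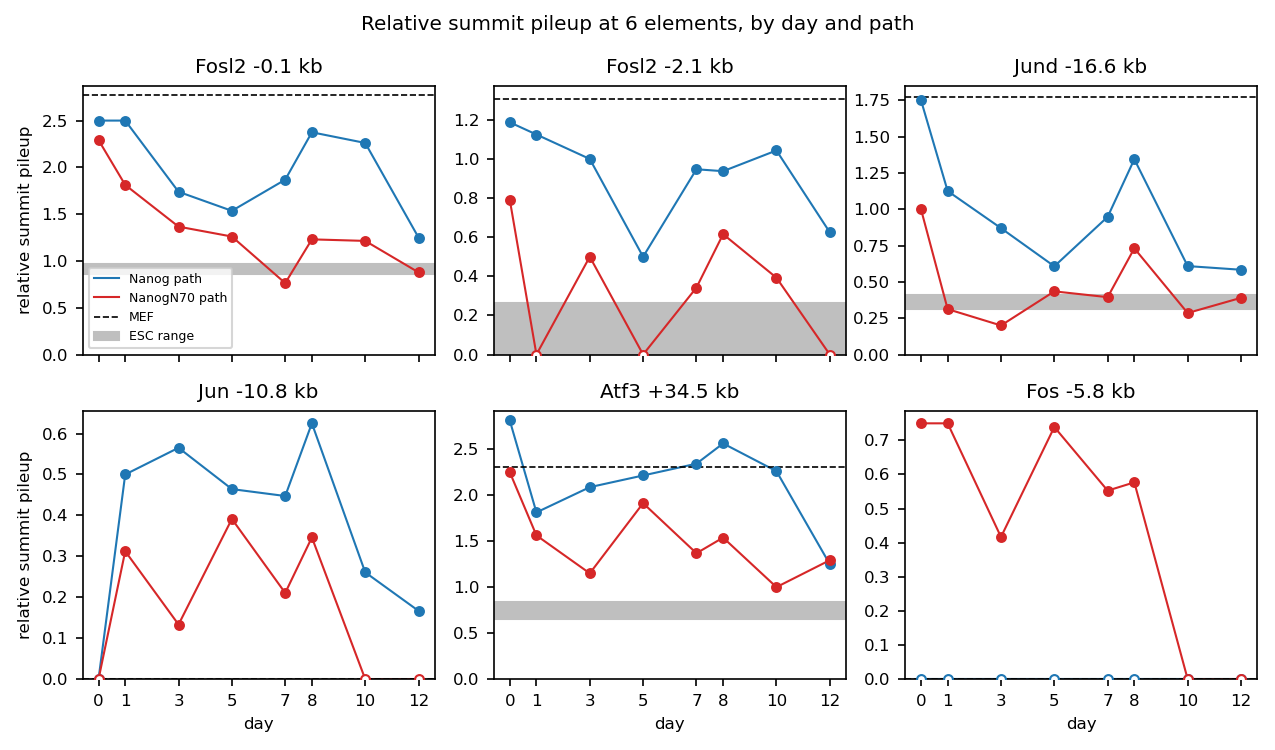
Relative summit pileup (vertical axis, linear, from 0) by day for the Nanog path (blue) and the NanogN70 path (red) at 6 elements, with open circles for days without a peak, the MEF value (dashed) and the range of the 3 ESC libraries (grey band). NanogN70 lay below Nanog on all 8 days at both plotted Fosl2 regions and at Jund -16.6 kb, and at Fos -5.8 kb the Nanog path had no peak on any day.

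The Fos element at -5.8 kb (chr12:85467855-85468386, intergenic), chosen after its values were seen, had the opposite direction. It was closed in MEFs, in all 3 ESC libraries and in all 8 Nanog libraries. On the NanogN70 path it had 18, 12, 25, 17, 21 and 15 tags on days 0, 1, 3, 5, 7 and 8, and no peak on days 10 and 12. The MACS scores of these 6 peaks lay between 120.29 and 232.28. The region was built from the peaks of these NanogN70 libraries alone. The direction of its path difference was therefore fixed in advance, and a path test on it is no support. The path difference was 1.39 with the library floors and 0.98 with the common floor, and 1.01 without day 3 with the common floor. It was 0.89 with MACS scores in place of pileup and 1.12 with equal numbers of top-scoring peaks. The nearest elements open in several libraries, at -11.5 kb and at the promoter, had path differences of -0.58 and -0.19 (exact permutation p = 0.0781 and 0.141). The constitutive elements farther out at -18.6 kb and 12.2 kb gave 0.08 and 0.13 (exact permutation p = 0.133 and 0.5).

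**Figure D5:**
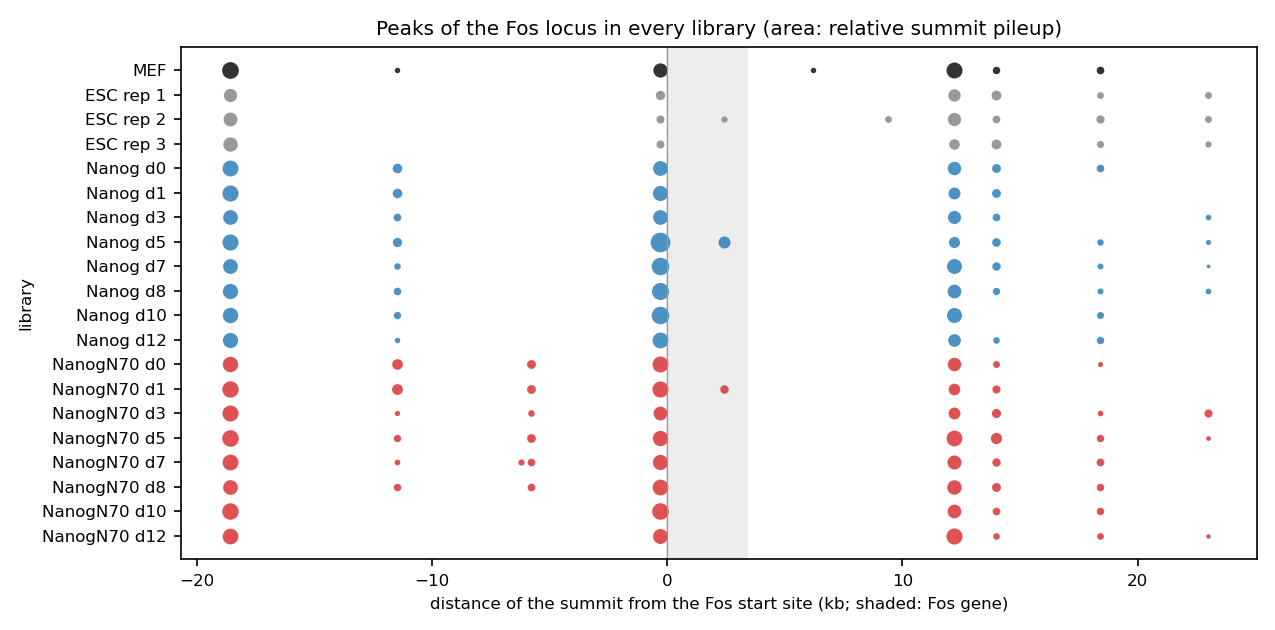
Peaks of the Fos locus by distance of the summit from the Fos start site (horizontal axis, kb) in each of the 20 libraries (rows), the area of a circle being proportional to the relative summit pileup. The elements at -18.6 and 12.2 kb and the promoter had a peak in all 20 libraries, and the element at -5.8 kb in 6, all of the NanogN70 path.

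The NanogN70 day 3 library alone had a peak at 15 of the 119 elements, against 5.32% of all regions. Of these, 6 were at Batf with 6 to 29 tags, 3 at Batf3 with 5 to 14, 2 at Fosb, 2 at Fosl1, 1 at Jund and 1 at Atf3. The T lymphocyte and leukocyte promoter peaks of the same library are given above, and their part in these 15 elements was not tested. That library alone carried the peak of the main Batf promoter region in the time course, with 49 tags.

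Genes around AP-1 in the pathway were counted by the promoter region with the highest median pileup, which may be shared with a neighbouring gene. All 9 genes for other bZIP partners and all 13 immediate early genes had a peak in all 20 libraries, as did 8 of 9 upstream kinase, SRF and ternary complex factor genes (Elk3 in 16). Of 13 AP-1 target genes of fibroblasts 12 had a promoter region, and 7 of these were open in all 20 libraries. Adjusted calls numbered 0 in each list in both comparisons. The medians of the late minus early differences were 0.09, -0.13, 0.20 and -0.42 on the log2 scale for the 4 lists in that order, against -0.13 over all regions, the latter a value of the floors. Late libraries all lay below early ones at 4 target genes (Mmp9, Plaur, Cd44 and Tgfb1) and at Egr3 and Nr4a1 of the immediate early genes, and all above at Dusp1, the MAP kinase phosphatase. Over all regions these shares were 0.301% and 0.233%. The gene with the largest difference in each list gave -2.00 at Cd44, the hyaluronan receptor, -1.09 at Nr4a1, an orphan nuclear receptor, 0.67 at Mapk3, which encodes ERK1, and 0.41 at Atf7 (library floors, exact permutation p = 0.005, 0.005, 0.01 and 0.015, all adjusted p of 0.147 or more). At Cd44 the relative pileup was 2.05 in MEFs, 0.70 to 1.42 early, 0.59 or below late with no peak on either day 12, and 0.21 to 0.22 in ESCs. NanogN70 was lower on all 8 days at Il6 and Ctgf and higher on all 8 at Ier2, against 1.12% and 0.114% of all regions. The 10 fibroblast marker genes, with 0 adjusted calls in either comparison, had medians of -0.96 late minus early and -0.69 for NanogN70 minus Nanog, both with the library floors. Twist1 was lower on all 8 days of the NanogN70 path, and Thy1 on 7, with no peak in either path on day 12. Their part in the differences at the target genes and at the AP-1 loci was not tested.

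The letters of the motifs, searched on both strands within 100 bp of the summit, gave a further description. AP-1 letters (TGACTCA or TGAGTCA) were present at 23 of 119 elements (19.3%), and in 13.2% of all regions of the same length. Of these 23, 21 were distal. Among MEF-only distal elements 8 of 20 held them, where 32.4% of all MEF-only distal regions did. Among shared distal elements 2 of 17 and among ESC-only ones 1 of 8 did, against 8.07% and 4.25% of the respective regions. Of the 43 distal elements open in no end point library 9 held them, against 10.8% of all such regions, and the remaining 1 was among the 8 of other combinations (6.31%). CArG boxes were found at 4 elements, the Fos promoter, Fosb -0.3 kb, Junb 2.1 kb and Fos 12.2 kb, and in 1.08% of all regions. The CRE letters TGACGTCA were found at the Jund promoter alone (0.459% of all regions). TEAD letters (GGAATG) were at 16 elements (15.4% of all regions), KLF letters (GGGCGTGG or GGGTGTGG) at 7 (4.27%), OCT letters (ATGCAAAT) at 5 (2.66%) and SOX letters (ACAATG) at 4 (12.0%). RefSeq promoters on GRCm38 were matched for 9 of 10 members, Fosl1 being the other. In the 250 bases before these 9 starts 0 held any of the 7 motifs, and AP-1 letters occur in 4.46% of 32851 promoters of that length. A match is a description of letters and not of a bound factor.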

How the data were processed

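ATAC-seq peaks and summits of 20 libraries were used. Per the labels and the study's methods, the authors trimmed reads (Trim Galore 0.6.4), aligned them to mm10 (Bowtie2 2.4.5), removed repetitive, low-quality and mitochondrial reads (SAMtools 1.16.1) and called peaks in each library separately with MACS 1.4.2, keeping duplicates. The deposited score is -10 times the log10 of the MACS p-value (lowest 50), and the deposited summit signal is a whole-number pileup of tags that the authors did not scale for depth. Depth per library is unknown, and intervals cover counting error only. ESC libraries were grouped by title, since another label field names MEFs for them.

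Peaks were merged (at least 1 bp shared) and annotated with GENCODE M21. The highest pileup of each library in a region was divided by that library's median at common regions, and regions without a peak took the lowest pileup of the library. Tests ran over all regions with Benjamini-Hochberg adjustment, calls being an adjusted p of 0.05 or below, in Python 3.11.15 with numpy 2.4.6, pandas 2.3.3 and scipy 1.17.1. They were tested on simulated data, where a 2-fold change gave an unadjusted p of 0.05 or below at 90.0% of changed regions early versus late and 90.5% between paths. Only the 14217 regions open in all 20 libraries were simulated, and 16 of the 119 elements were of that kind. These shares do not cover elements without a peak in some libraries. The promoter with the highest median pileup and the distal element open in most libraries of each gene were described by rule. All other elements, second promoter regions included, were chosen after their values were seen. The members, gene lists and tests were chosen with earlier results of these data known. The alternatives were percentile ranks, MACS scores, stricter or equal peak numbers, a summit window, other distances, leaving out libraries or days and, added after seeing the data, a common floor.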

Additional observations from a re-analysis of the deposited data

How the results depend on the processing

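The numbers of elements called were 0 under each of 23 alternatives for early versus late except 1, and under each of 16 between the paths. For some early versus late alternatives a count of 0 was fixed in advance. These were days 0 and 1 against days 10 and 12 (smallest possible p 0.056) and each path alone (0.1). Leaving out 1 library moved the early versus late count over a range of 0 to 84, and the 84 came without NanogN70 day 3, when 271546 of 335858 regions (80.9%) were called. Of these, 161073 had no peak in any of the 11 libraries used and 87.5% a peak in at most 2. The floors of the early libraries (0.167 to 0.25 of the median) then lay almost wholly above those of the late ones (0.122 to 0.174). With the common floor, added after seeing the data, the same 11 libraries gave 0 calls, so these calls rest on how regions without a peak were filled. Between the paths each leave-out gave 0. Alternatives were run singly for 10 early-to-late and 8 path differences, and 2 of these 18 changed direction, both with summits within 250 bp only: Jund promoter, early to late, -0.18, and Batf 18.8 kb, path, 0.092. The cause was not tested. MEF-only elements numbered 26, with 14 at a score of at least 100, 10 with equal numbers of top-scoring peaks and 15 within 10 kb of the genes. Leaving out an ESC replicate gave 26 to 27. MEF elements still open on day 12 numbered 50% on both paths, against 26.0% of all MEF regions on each. With equal numbers of top-scoring peaks they numbered 82.1% (Nanog) and 67.9% (NanogN70). Unknown depth and 1 library per day limit each comparison. Day is the pair in the test between paths, and without replicate numbers in the time course no further block could be fitted. The early versus late test exchanged days in each path separately. It thus took both libraries of a day as independent, and its p-values make no allowance for a shared day.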
